A study of Rattus norvegicus with 54 samples.

Results

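Nat8f3 was examined together with 4 enzymes of N-acetylaspartate metabolism, Nat8l, Aspa, Rimkla and Rimklb, in bulk RNA of the nucleus accumbens of Long Evans rats. They are 5 of the 45785 named genes of the deposited table and were found by their gene names. Nat8f3 was chosen on its level at postnatal day 90 (P90) over postnatal day 42 (P42) in control females, in earlier results of these data, and the other 4 were added as pathway genes with those results known. All 5 passed the filter on low counts in every fit.

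The nucleus accumbens is the ventral part of the striatum and takes part in reward. Rats were exposed before birth to ethanol (PAE) or came from dams given a free-choice liquid diet (FCL), the prenatal control. During adolescence they received alcohol (AAE) or water (VEH), and brains were taken at P42, 24 h after the last adolescent exposure, or in adulthood at P90 with no challenge. The 54 libraries form 8 groups. At P90 there were 5 libraries of PAE-AAE females, 8 of FCL-VEH females, 6 of PAE-AAE males and 6 of FCL-VEH males. At P42 there were 4 libraries of PAE-VEH females, 7 of FCL-VEH females, 9 of PAE-VEH males and 9 of FCL-VEH males. FCL-VEH rats, which share the liquid diet and the water, are called controls and the others exposed rats. Prenatal and adolescent exposure come together in the adult exposed groups and cannot be told apart there. The exposed groups of the 2 ages also differ in adolescent alcohol, so for them age and adolescent alcohol cannot be told apart.

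N-acetylaspartate is among the most abundant small molecules of the mammalian brain and is made mainly in neurons. Nat8l encodes the synthase that joins acetyl-CoA to aspartate. Aspa encodes aspartoacylase, which splits N-acetylaspartate into acetate and aspartate in oligodendrocytes and whose loss causes Canavan disease in humans. Rimkla and Rimklb encode ligases that join N-acetylaspartate to glutamate, which gives the neuropeptide N-acetylaspartylglutamate (NAAG). Nat8f3 carries the name of the N-acetyltransferase 8 family, to which Nat8l also belongs by name, and no part of it in N-acetylaspartate synthesis is assumed here.

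On the rat assembly GRCr8, whose coordinates the deposited table shares, all 5 genes lie on the minus strand. Nat8f3 spans 119799258 to 119803476 of chromosome 4, within a run of related genes that holds Nat8f5, Nat8, Nat8f2, Nat8f4, Nat8f1 and Nat8b, all on the minus strand. Its nearest neighbours are Nat8f5 at 14312 bp and Alms1 at 15787 bp. Nat8l spans 80980629 to 80987264 of chromosome 14, Aspa 58390204 to 58443790 of chromosome 10, Rimkla 138357463 to 138384132 of chromosome 5 and Rimklb 157336950 to 157396970 of chromosome 4. Aspa overlaps Trpv3 and Spata22 on the plus strand, and the libraries did not keep the strand, so reads in those overlaps cannot be assigned to one gene. Trpv3 had a mean of 282.3 counts and Spata22 of 16.1 per library.

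Promoter sequences are shown for Nat8f3 and Nat8f4, the 2 genes of the chromosome 4 cluster with the highest levels per length, and beside them for Aspa, with a window poor in GC, and Rimkla, with a window rich in GC. Each runs 5′ to 3′ on the gene's strand, from 250 bases before the start to 50 bases after it (RefSeq, GRCr8), and capitals mark letters found on either strand that match TATAAA, the motif CCAAT or a GC box, GGGCGG. They lie at chr4:119803427-119803726, chr4:119890017-119890316, chr10:58438988-58439287 and chr5:138384083-138384382. The Aspa window lies within the span of the gene, 58390204 to 58443790, so the start used for it is not the outermost one.
Nat8f3: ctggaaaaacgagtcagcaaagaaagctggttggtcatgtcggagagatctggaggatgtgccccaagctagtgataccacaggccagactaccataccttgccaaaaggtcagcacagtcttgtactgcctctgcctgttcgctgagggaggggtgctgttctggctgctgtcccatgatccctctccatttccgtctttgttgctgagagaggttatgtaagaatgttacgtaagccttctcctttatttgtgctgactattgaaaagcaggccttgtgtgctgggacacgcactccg
Nat8f4: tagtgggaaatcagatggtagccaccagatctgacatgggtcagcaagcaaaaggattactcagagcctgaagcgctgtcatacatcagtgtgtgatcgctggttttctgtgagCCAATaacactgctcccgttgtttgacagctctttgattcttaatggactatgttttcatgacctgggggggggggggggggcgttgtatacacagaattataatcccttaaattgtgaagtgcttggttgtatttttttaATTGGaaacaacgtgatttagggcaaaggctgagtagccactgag
Aspa: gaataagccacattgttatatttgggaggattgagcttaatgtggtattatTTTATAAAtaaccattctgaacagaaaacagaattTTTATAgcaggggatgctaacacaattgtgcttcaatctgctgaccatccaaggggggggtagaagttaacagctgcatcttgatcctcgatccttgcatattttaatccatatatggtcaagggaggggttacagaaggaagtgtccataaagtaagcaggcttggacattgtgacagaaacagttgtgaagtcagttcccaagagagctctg
Rimkla: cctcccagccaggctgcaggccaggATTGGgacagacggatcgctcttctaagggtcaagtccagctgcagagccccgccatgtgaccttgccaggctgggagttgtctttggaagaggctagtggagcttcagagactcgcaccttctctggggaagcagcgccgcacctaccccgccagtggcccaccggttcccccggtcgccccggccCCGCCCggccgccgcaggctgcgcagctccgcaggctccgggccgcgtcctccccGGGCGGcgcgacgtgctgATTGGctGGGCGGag
The Nat8f3 window had a GC content of 51% and 7 CpG dinucleotides, near the medians of 51.7% and 7 over all 33469 promoters of the table. It held none of the 5 motifs searched on both strands, which also included TGANTCA and the cyclic AMP response element TGACGTCA. The Nat8f4 window had a GC content of 45.3% and 2 CCAAT matches, a motif found in 37.5% of all promoters. The Aspa window was poor in GC, at 40.3% with 1 CpG, and held 3 matches to TATAAA, 2 of which overlap; this motif was found in 14.2% of promoters. The Rimkla window had a GC content of 70.3%, 26 CpG, 2 CCAAT matches and 3 GC boxes, the last found in 33.1% of promoters. The Rimklb window was richer still, with a GC content of 81.7%, 56 CpG and 7 GC boxes, and 99.5% of promoters had a lower GC content. It lies at chr4:157378678-157378977, also within the span of its gene, 157336950 to 157396970. The other 2 motifs were found in 7.33% (TGANTCA) and 1.83% (the cyclic AMP response element) of promoters.

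The libraries held between 59.1 and 103.8 M counts, with a median of 72.5 M. Xist and Y-linked genes went against the sex label in 3 of 54 libraries, all of P42, namely control males replicate 8, control females replicate 5 and PAE-VEH males replicate 5. They were kept under their labels. Nat8f3 values between the ages are given with and without them for control females, control males, exposed males and the mean over the sexes of exposed rats. The 20 markers of medium spiny neurons, the main cells of the accumbens, were all detected in every library, with summed levels from 4351 to 14330 CPM (counts per 1 M counts, library sizes scaled by TMM). In bulk RNA, fewer cells of a type and less RNA per cell cannot be told apart.

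Per length, Nat8l was the most abundant of the 5 genes, at 70.2 ± 9.56 FPKM as deposited (SD over 54 libraries, range 52.1 to 97.6). Nat8f3 followed at 14.8 ± 8.16 FPKM, with a range from 5.96 to 40.4 that was the widest of the 5 relative to its mean. Rimkla averaged 7.69 ± 1.32 FPKM, Rimklb 4.55 ± 0.68 FPKM and Aspa 2.23 ± 0.739 FPKM over the same libraries. The smallest count behind a Nat8f3 value was 1339 and the largest 10106, and Aspa had at least 1024 counts, so counting error is small beside the spread between libraries.

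Nat8f3 was higher in adults than in adolescents of both sexes, and the other 4 genes did not pass the threshold between the ages in any group. In control females, the groups it was chosen on, Nat8f3 had 52.04 CPM in the lowest, 84.5 CPM in the median and 139 CPM in the highest of the 8 P90 libraries, and 20.4, 25.1 and 41.9 CPM in the lowest, median and highest of the 7 P42 libraries. The ranges of the 2 ages did not overlap, and the means of 89.5 ± 29.3 CPM at P90 and 27.97 ± 7.72 CPM at P42 (SD, n = 8 and 7) stood 3.2-fold apart. The fitted log2 fold change was 1.68 ± 0.21 (SE), given as a description and without a test, and 1.61 without the mismatched library. Among all 24065 genes tested, 0.112% had every P90 library above every P42 library in control females, and 0.42% passed an adjusted p under 0.05 in edgeR. All 14 neuron markers (median log2 fold change 0.22) and 8 of 10 cortical neuron markers (median 0.98) were higher at P90 in these females. Lower were 12 of 13 ependymal markers (median -0.81) and 12 of 13 choroid plexus markers (median -0.53). Under other settings, which include marker scores as covariates, the Nat8f3 value ran from 1.48 to 1.71. The part of the neuron markers was not tested.

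Control males, whose libraries were not used to choose Nat8f3, had 48.4 CPM in the lowest, 64.4 CPM in the median and 98.3 CPM in the highest of 6 P90 libraries. The 9 P42 libraries had 21.3, 32.5 and 44.1 CPM as lowest, median and highest values. Every P90 male library lay above every P42 male library, which held for 0.362% of all genes in that comparison. Nat8f3 rose with age in control males, to a mean of 66.4 ± 19.2 CPM at P90 against 31.7 ± 8.32 CPM at P42 (SD, n = 6 and 9), with a log2 fold change of 1.07 ± 0.20 (95% confidence interval 0.67 to 1.47) and an adjusted p of 0.00551 in edgeR's quasi-likelihood test. It ranked 52nd of 24065 genes by p, where 2.53% of genes passed the threshold, 465 upward and 145 downward. Without the mismatched library the log2 fold change was 1.02 with an adjusted p of 0.0105, and leaving out any 1 of the 15 libraries gave 0.92 to 1.14 with an adjusted p of at most 0.0153. In control males at P90 all 13 choroid plexus markers were higher than at P42, with a median log2 fold change of 0.94 and summed levels from 248.3 to 4628 CPM at P90 and from 205.5 to 2558 CPM at P42, and all 14 astrocyte markers were higher, with a median of 0.32 and sums from 8050 to 10510 CPM and from 7687 to 9060 CPM. No marker of either list was at 0 in any library. In the same comparison 12 of 13 ependymal markers (median 0.56) and 15 of 16 microglia markers (median 0.35) were higher. With choroid plexus, ependymal and cortical neuron scores as covariates the Nat8f3 log2 fold change of control males was 1.15 (adjusted p = 0.0113). The part of the astrocyte and microglia markers was not tested.

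**Figure D1:**
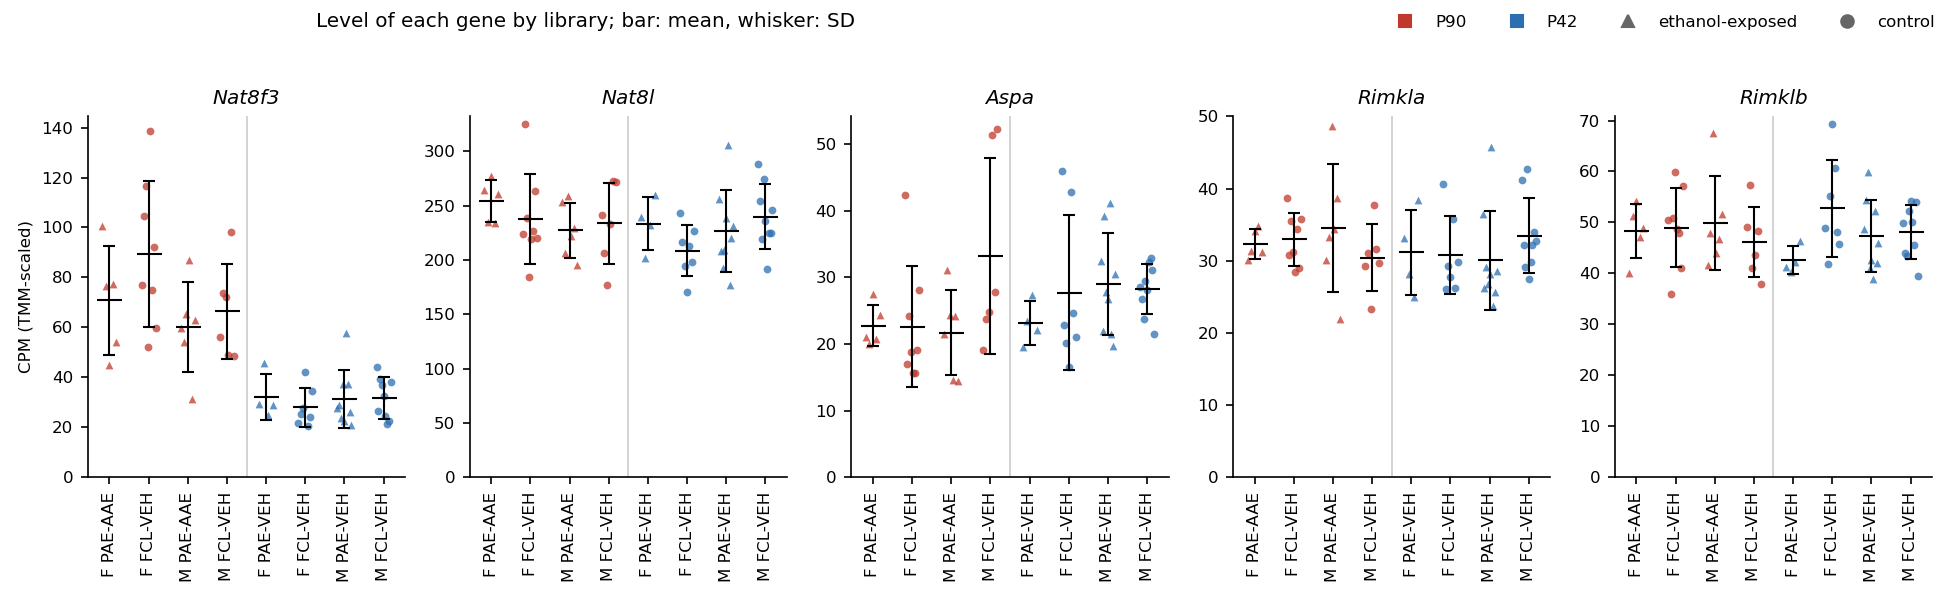
Level of each of the 5 genes in CPM (y axis, linear, from 0) in every library of the 8 groups (x axis), with triangles for exposed and circles for control libraries, red for P90 and blue for P42, and the bar and whiskers for mean and SD. Nat8f3 averaged 60.1 to 89.5 CPM in the 4 adult groups and 27.97 to 32.2 CPM in the 4 adolescent groups. Its ranges overlap between the ages in exposed females and exposed males, and do not in control females or control males. The groups of the other 4 genes overlap between the ages.

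The exposed rats gave a second set of libraries that the choice of Nat8f3 did not use. PAE-AAE females at P90 had 45.02, 54.3, 76.8, 77.2 and 100.6 CPM, and PAE-VEH females at P42 had 24.8, 29.04, 29.3 and 45.6 CPM. The lowest adult library and the highest adolescent library overlapped by less than 1 CPM. Nat8f3 rose by 1.14 ± 0.29 on the log2 scale in exposed females (means 70.8 ± 21.8 and 32.2 ± 9.16 CPM at P90 and P42, SD, n = 5 and 4; adjusted p = 0.0403). In that comparison 2.17% of 24337 genes passed. The adjusted p was 0.0434 without PAE-VEH replicate 2 and 0.0335 without PAE-AAE replicate 3, and it lay between 0.058 and 0.154 when any of the other 7 libraries was left out, with log2 fold changes of 0.97 to 1.22. All 13 choroid plexus and all 14 astrocyte markers were higher at P90 in these females too, with medians of 1.43 and 0.32. All 9 septal and pallidal markers were higher as well, with a median of 0.68 and sums from 116.5 to 350.7 CPM at P90 and from 142.7 to 168.3 CPM at P42. All 20 medium spiny neuron markers were lower, with a median of -0.30 and sums from 8446 to 11680 CPM at P90 and from 10870 to 14330 CPM at P42. With choroid plexus, ependymal and cortical scores as covariates Nat8f3 had 1.17 (adjusted p = 0.0461). The part of the astrocyte, septal and medium spiny neuron markers was not tested.

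PAE-AAE males at P90 had 31.4 CPM in the lowest, 61.3 CPM in the median and 87.03 CPM in the highest of 6 libraries, against 20.95, 27.7 and 57.6 CPM in the lowest, median and highest of 9 PAE-VEH males at P42. The ranges overlapped, with all 6 adult libraries above the adolescent median. The log2 fold change of 0.94 ± 0.22 did not pass (means 60.1 ± 18 and 31.4 ± 11.5 CPM, SD, n = 6 and 9; adjusted p = 0.0747; 0.284% of genes passed). Without PAE-VEH replicate 6, whose 57.6 CPM stood apart from the next value of 37.5 CPM, it was 1.10 with an adjusted p of 0.0101, and without PAE-AAE replicate 5 it was 1.07 with an adjusted p of 0.0287. These libraries held the highest adolescent and the lowest adult value, so leaving out either widens the difference. Leaving out each of the 15 libraries in turn gave 0.80 to 1.10 with adjusted p-values up to 0.198, and only these 2 passed. PAE-VEH replicate 6 also had the highest cortical neuron and neuron scores and the lowest ependymal score of all 54 libraries, at 2.88, 0.72 and -2.93 (mean log2 level of a list relative to its mean over all libraries). With choroid plexus, ependymal and cortical scores as covariates the exposed male value was 0.94 (adjusted p = 0.0555). Without the mismatched library the Nat8f3 value was 0.89 with an adjusted p of 0.129. DESeq2 and voom gave adjusted p-values of 0.00314 and 0.0153 for exposed males.

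Averaged over the sexes, Nat8f3 rose by 1.04 ± 0.18 on the log2 scale in exposed rats (95% confidence interval 0.68 to 1.40, adjusted p = 0.00356), where 1.16% of genes passed. Without the mismatched libraries it was 1.01 with an adjusted p of 0.00539. The rise of Nat8f3 in exposed rats minus that in controls was -0.33 ± 0.24 and the rise in control females minus that in control males was 0.61 ± 0.29. Both hold the values Nat8f3 was chosen on and are descriptions, and 0% of genes passed in either comparison. By unadjusted p under 0.05, 2045 genes passed in the female-minus-male comparison and 1761 in the exposed-minus-control comparison.

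**Figure D2:**
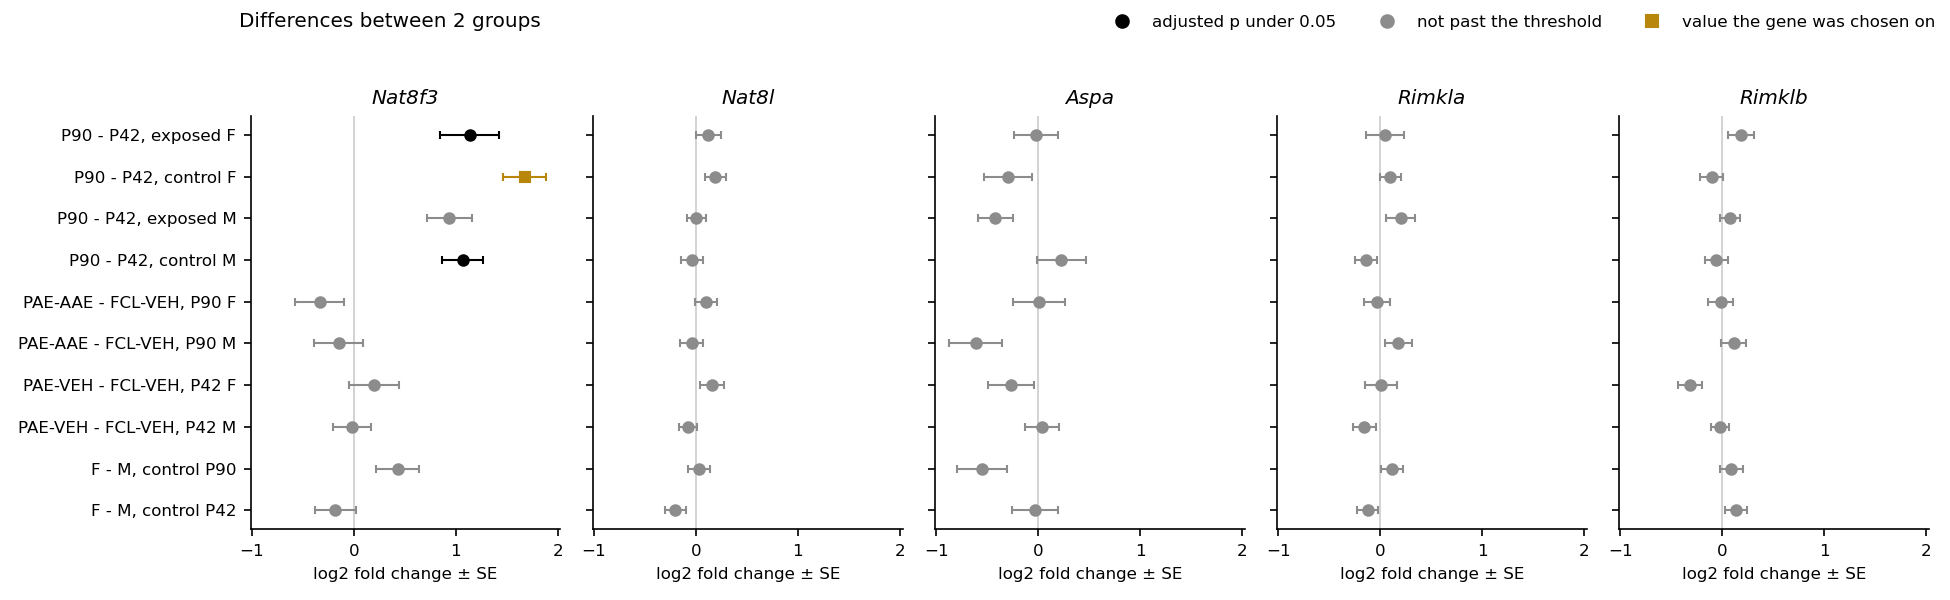
Log2 fold change with its SE (x axis) of the 5 genes in 10 comparisons of 2 groups (y axis), with black points for an adjusted p under 0.05 and a square for the value Nat8f3 was chosen on. The Nat8f3 values of 1.14 in exposed females and 1.07 in control males passed, and no point of Nat8l, Aspa, Rimkla or Rimklb did.

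In the order of group means, Nat8f3 ran from 89.5 CPM in P90 control females through 70.8 CPM in P90 PAE-AAE females, 66.4 CPM in P90 control males and 60.1 CPM in P90 PAE-AAE males. The adolescent groups followed within a narrow band, at 32.2 CPM in PAE-VEH females, 31.7 CPM in control males, 31.4 CPM in PAE-VEH males and 27.97 CPM in control females. Each pair of neighbours in this order had overlapping ranges, also at the step from adults to adolescents.

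Nat8f3 did not pass the threshold for ethanol exposure at either age. At P42 its log2 fold change was 0.20 ± 0.25 in PAE-VEH over control females and -0.01 ± 0.19 in PAE-VEH over control males. Under other settings, which include leaving out the mismatched libraries, it ran from 0.09 to 0.23 in females and from -0.15 to 0.09 in males, and none passed. At P90 it was -0.34 ± 0.24 in females, where 1 of 5 PAE-AAE libraries lay above the control median, and -0.15 ± 0.24 in males, where 2 of 6 did. The mean over the sexes at P90 was -0.24 ± 0.17, with a 95% confidence interval from -0.58 to 0.09. The P90 female comparison shares its control libraries with the contrast on which Nat8f3 was chosen. Between the sexes, the control log2 difference, female minus male, was 0.43 ± 0.21 at P90 and -0.18 ± 0.20 at P42, and neither passed. The P90 value uses the same control females. Under other settings, again with the mismatched libraries left out in some, the P42 difference between the sexes ran from -0.25 to -0.14 and did not pass.

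In these comparisons few genes passed at all. The shares were 0% in each of the 4 exposure comparisons at P42 (males, females, their mean and their difference) and 0% at P90 in males, in females and in their difference. They were 0.00416% for the mean over the sexes at P90, 0% for the sexes at P42 and 0.0499% for the sexes at P90. The P42 comparison of the sexes holds control males replicate 8 and control females replicate 5, whose sex markers go against their labels. Under other settings 0 to 13 genes passed in it, so its 0% is no measure of how far the sexes differ. None of the 5 genes passed in edgeR, DESeq2 or voom in any of these 10 comparisons, and those with an unadjusted p under 0.05 were Aspa in males at P90 and between the sexes at P90, and Rimklb in females and in the mean over the sexes at P42. At that unadjusted threshold stood 8.74% of all genes in males at P90, 5.85% between the sexes at P90, 11.3% in females at P42 and 10.9% in the mean over the sexes at P42.

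Nat8l, the synthase, had a level that differed little between groups. Its means were 254 ± 19 CPM in PAE-AAE females, 238 ± 41.5 CPM in control females, 227 ± 25.2 CPM in PAE-AAE males and 234 ± 37.4 CPM in control males at P90. At P42 they were 233 ± 24.2 CPM in PAE-VEH females, 209 ± 23.6 CPM in control females, 227 ± 38 CPM in PAE-VEH males and 240 ± 29.5 CPM in control males (SD, n as above). The largest difference between the ages was a log2 value of 0.19 ± 0.10 in control females (95% confidence interval -0.01 to 0.39, adjusted p = 0.374), and in control males it was -0.04 ± 0.11 (-0.25 to 0.17). The control male interval ends below the Nat8f3 value of 1.07 in the same fit.

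Aspa, the hydrolase, varied more between libraries than between groups. In PAE-AAE males at P90 its 6 libraries ran from 14.4 to 31.1 CPM with a median of 22.9 CPM, and those of control males from 19.1 to 52.3 CPM with a median of 26.3 CPM. PAE-AAE males had 1 of 6 libraries above the control median, and the log2 difference at P90 was -0.61 ± 0.26, with an unadjusted p of 0.0269 and an adjusted p of 0.552. In females at P90 the difference was 0.01 ± 0.26, and the female minus male difference of the 2 was 0.62 ± 0.36 (adjusted p = 0.546). Between the ages Aspa had log2 fold changes of -0.02 ± 0.22 in exposed females, -0.29 ± 0.23 in control females, -0.42 ± 0.17 in exposed males and 0.23 ± 0.24 in control males, and none passed.

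The 19 matched markers of myelin and mature oligodendrocytes moved beside Aspa. All 19 were lower in PAE-AAE than in control males at P90, with a median log2 fold change of -0.41 against 0.01 over all genes, and 17 of 19 were lower in exposed males at P90 than at P42, with a median of -0.43. Their summed level ran from 7814 to 14200 CPM in PAE-AAE males and from 8707 to 33570 CPM in control males at P90, and no marker was at 0 in any library. Other lists were lower in PAE-AAE than in control males at P90 too, namely all 14 astrocyte markers (median -0.17), all 10 cortical neuron markers (median -0.43), 15 of 16 microglia markers (median -0.41) and 12 of 13 choroid plexus markers (median -0.67). With the score of the myelin list as a covariate, the Aspa difference of PAE-AAE males at P90 was -0.19 (adjusted p = 0.858), and with choroid plexus, ependymal and cortical scores it was -0.43 (adjusted p = 0.941). Over the 54 libraries with group means taken off, Aspa had a Pearson r of 0.93 with the myelin score (Spearman 0.916, and 0.919 without the 2 libraries farthest from its median). Aspa had r of 0.884 with the oligodendrocyte precursor score and 0.631 with the microglia score. These points share library depth and tissue composition, and the part of the astrocyte and microglia lists in the Aspa difference was not tested.

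**Figure D3:**
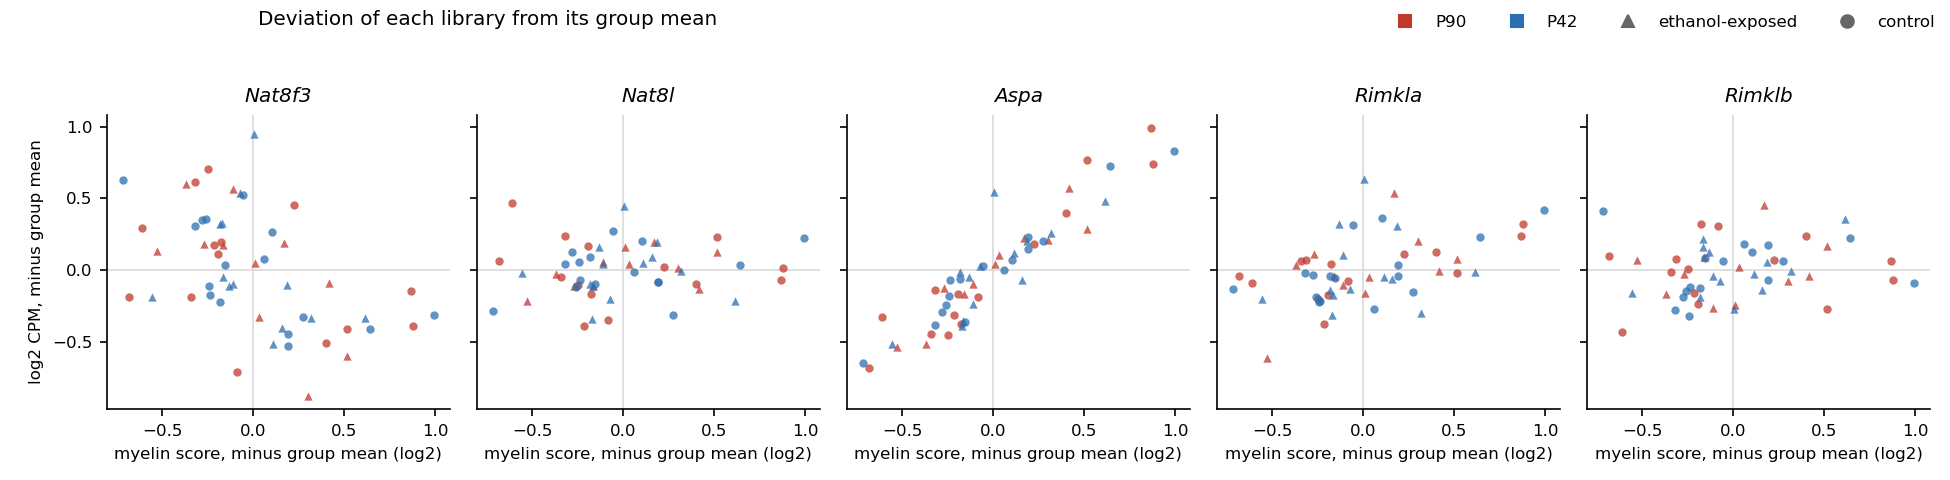
Log2 CPM of each gene minus its group mean (y axis) against the myelin score minus its group mean (x axis, mean log2 level of 19 markers) in the 54 libraries, coloured by age and shaped by exposure. Aspa follows the score with r = 0.93, Nat8f3 leans against it with r = -0.505, and Nat8l shows little relation with r = 0.0916.

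Nat8f3 ran against the myelin markers, with a Pearson r of -0.505 to their score (Spearman -0.552, and -0.49 without the 2 farthest libraries). In control females 17 of 19 markers were lower at P90 than at P42, with a median log2 fold change of -0.56, and their sum ran from 7136 to 20230 CPM at P90 and from 9119 to 32820 CPM at P42. In control males 10 of 19 were higher, with a median of 0.04, and the sum ran from 8707 to 33570 CPM at P90 and from 14050 to 20540 CPM at P42. With the myelin score as a covariate, the Nat8f3 log2 fold change was 1.48 in control females and 1.05 in control males (adjusted p = 0.000408). In exposed rats it was 0.84 as the mean over the sexes (adjusted p = 0.0105) and 0.67 in males (adjusted p = 0.17).

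Rimkla and Rimklb, the NAAG ligases, were also level across the groups. Rimkla means were highest in PAE-AAE males at P90, at 34.5 CPM, and lowest in PAE-VEH males at P42, at 30.03 CPM. Rimklb means were lowest in PAE-VEH females, at 42.6 CPM, and highest in control females, at 52.8 CPM, both at P42. Rimklb had the smallest unadjusted p of the 4 pathway genes: PAE-VEH females at P42 had 40.3, 41.4, 42.3 and 46.5 CPM, against 41.8 CPM in the lowest, 48.9 CPM in the median and 69.2 CPM in the highest of 7 control libraries. All 4 PAE-VEH libraries lay below the control median, the ranges overlapped, and the log2 difference of -0.31 ± 0.12 had an adjusted p of 0.308. Beside it, all 20 medium spiny neuron markers were higher in PAE-VEH than in control females at P42, with a median log2 fold change of 0.43, and Rimklb had an r of -0.625 with the score of that list over 54 libraries. Their part in the Rimklb value was not tested.

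Between the ages Rimkla had log2 fold changes of 0.05 ± 0.19 in exposed females, 0.10 ± 0.11 in control females, 0.20 ± 0.14 in exposed males and -0.14 ± 0.11 in control males. Rimklb had 0.18 ± 0.13, -0.11 ± 0.11, 0.08 ± 0.10 and -0.06 ± 0.11 in the same groups. None of these passed in edgeR. The lowest adjusted p of the 4 pathway genes between the ages within a sex was the 0.374 of Nat8l in control females, with Aspa in exposed males at 0.394.

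Across libraries the 5 genes did not form one group. After group means were taken off, Pearson r over the 54 libraries was 0.555 between Nat8l and Rimkla, 0.535 between Aspa and Rimkla and -0.397 between Nat8l and Rimklb. Nat8f3 had r of -0.389 with Aspa, 0.129 with Nat8l, -0.0119 with Rimkla and -0.169 with Rimklb. Spearman values for these pairs had the same signs.

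The genes most like each member were taken by the same correlation over 14460 other genes. For Nat8f3 they were the transcriptional co-regulator Cited2 (r = 0.648), the scaffold Lin7a (0.633), the P450 reductase Por (0.631), the deubiquitinase Usp46 (0.611) and the co-activator Eya2 (0.608), and 3 of these 5 stayed in the first 5 by Spearman correlation or without the 2 farthest libraries. Nat8l lay beside neuronal genes, with Kcnab2 (0.932), Pacsin1 (0.927), Rab6b (0.917), Nefl (0.91) and Thy1 (0.903) as the closest and an r of 0.792 with the neuron marker score. Aspa lay beside Ndrg1 and Cnp (0.955 each), Apod (0.954), Csrp1 (0.953) and Ermn (0.949), of which Cnp and Ermn are on the myelin list. Rimkla was closest to the channels Kcnc2 (0.862) and Scn1a (0.84), then Rab3c (0.836), Iglon5 and Sertm1 (0.835 each), with an r of 0.765 to the neuron score and -0.753 to the ependymal score. Rimklb was closest to Ccdc50 (0.782), Heatr5a (0.771), Gpld1 (0.758), Mtcl2 (0.736) and Ggps1 (0.731). The highest r for Nat8f3 was thus lower than for the other 4.

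Of the N-acetyltransferase 8 family list, 8 of 10 genes matched the table. They are near copies in part, Nat8 lies inside Nat8f5, and how reads shared between copies were counted is not stated, so values within the family are uncertain to that extent. Per length the neighbours lay below Nat8f3, at 6.13 FPKM for Nat8f4, 3.71 for Nat8f5, 2.42 for Nat8f1, 2.32 for Nat8b, 1.11 for Nat8f2 and 0.126 for Nat8, as means over 54 libraries. Of the 7 genes other than Nat8f3, Nat8f4 passed between the ages in control females and none passed in control males in edgeR. Without Nat8f3, the median log2 fold change of these 7 genes was 0.26 in control females and 0.31 in control males, beside -0.00179 and -0.00134 over all genes. Between the exposed groups of the 2 ages it was -0.0455 in females and 0.0516 in males, beside -0.00723 and 0.0043 over all genes. The 7 genes include Nat8l, on chromosome 14, and Nat8, with a mean of only 7.43 counts per library.

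Nat8f4 had 15.7 CPM in the lowest, 28.2 CPM in the median and 39.8 CPM in the highest control female at P90, against 11.2, 15.3 and 21.9 CPM in the lowest, median and highest at P42. The groups overlapped, and Nat8f4 rose by 0.77 ± 0.18 on the log2 scale (means 26.6 ± 7.38 and 15.6 ± 4.13 CPM, SD, n = 8 and 7; adjusted p = 0.0424). The call held without P90 replicate 4 or 6 or P42 replicate 4 or 7 and was lost without any of the other 11 libraries, with adjusted p-values up to 0.113. Without the mismatched library it was 0.80 with an adjusted p of 0.0856, and with choroid plexus, ependymal and cortical scores as covariates 0.59 with an adjusted p of 0.172. In control males Nat8f4 had 0.35 ± 0.18 and an adjusted p of 0.307. Nat8f1 had 0.78 ± 0.20 in control females (adjusted p = 0.066) and 0.46 ± 0.20 in control males (adjusted p = 0.22), and Nat8b had -0.14 ± 0.12 and 0.03 ± 0.12.

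The neighbours differed among themselves in exposed rats. As means over the sexes between the ages, Nat8f4 had 0.02 ± 0.12, Nat8f1 0.02 ± 0.17 and Nat8f2 1.0 ± 0.30 (adjusted p = 0.125) on the log2 scale, beside the 1.04 of Nat8f3. Nat8f2 had 4.54, 4.91, 5.22, 5.54 and 5.70 CPM in PAE-AAE females at P90 and 0.505, 1.82, 2.39 and 3.08 CPM in PAE-VEH females at P42. These ranges did not overlap, but in that comparison 4.77% of 24337 genes had every P90 library above every P42 library. The Nat8f2 log2 fold change of 1.41 ± 0.49 did not pass (adjusted p = 0.135). At P90, Nat8f1 had -0.72 ± 0.20 in PAE-AAE over control females (unadjusted p = 0.00154, adjusted p = 0.925) and Nat8f4 -0.54 ± 0.19 (unadjusted p = 0.00806, adjusted p = 1). In males at P90 Nat8f4 had -0.38 ± 0.19 (adjusted p = 0.575) and Nat8f5 -0.52 ± 0.29 (adjusted p = 0.613), and as means over the sexes Nat8f1 had -0.50 ± 0.14 and Nat8f4 -0.46 ± 0.13 (adjusted p = 1 each). The change between the ages, exposed minus control, was -0.53 ± 0.18 for Nat8f4 and -0.60 ± 0.22 for Nat8f1 (adjusted p = 0.719 each). At P42 the smallest p belonged to Nat8f5 in both sexes, at -0.49 ± 0.21 in females (adjusted p = 0.382) and -0.15 ± 0.16 in males (adjusted p = 0.832). No family gene passed for ethanol exposure in edgeR; by unadjusted p under 0.05 there were 4 of 8 in the mean over the sexes at P90 (Nat8f1, Nat8f4, Nat8f5 and Nat8f2, the last at 0.56 ± 0.22 and thus higher in PAE-AAE), where 3.26% of all genes stood at that threshold. There were 2 in females at P90 (4.23% of all genes), 1 in females at P42 (11.3%), 1 in the mean over the sexes at P42 (10.9%) and 0 in males at either age. Over libraries with group means taken off, Nat8f3 had r of 0.326 with Nat8f4, 0.318 with Nat8f1, 0.298 with Nat8f5, -0.498 with Nat8f2 and -0.602 with Nat8b.

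**Figure D4:**
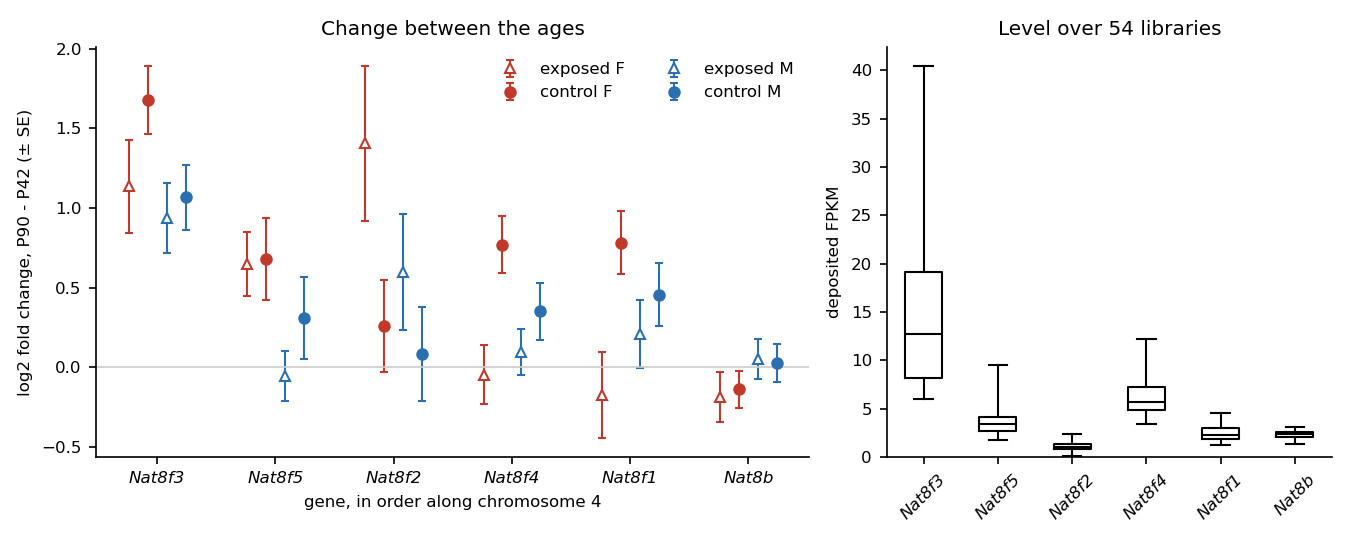
Left, log2 fold change of P90 over P42 with its SE (y axis) for 6 genes in their order along chromosome 4 (x axis), in exposed (triangles) and control (circles) females (red) and males (blue). Right, deposited FPKM over 54 libraries (y axis, from 0) as median, quartiles and full range. Nat8f3 stands highest in level, at a mean of 14.8 FPKM, and lies at 0.94 or above in the 3 age comparisons it was not chosen on. In exposed females Nat8f2 lies at 1.41 and Nat8f5 at 0.65, while Nat8f4 lies at -0.05 and Nat8f1 at -0.17.

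The wider pathway list held 23 genes, which carry aspartate and acetyl-CoA supply, N-acetylaspartate transport, NAAG cleavage and the NAAG receptor, and all 23 were tested. In control males 2 rose and 1 fell between the ages, where 2.53% of all genes passed, and the median log2 fold change was -0.04. In control females none passed in edgeR, with 16 of 23 higher at P90, a median of 0.10 and 6 at an unadjusted p under 0.05, where 15.3% of all genes stood. There Acss2 and Acy1 passed in DESeq2 (adjusted p = 0.0163 and 0.0337) and Acy1 in voom (adjusted p = 0.0311). In exposed rats Acss2 fell in males, Acy1 rose in females, and Acss2 fell in the mean over the sexes.

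Acss2, which makes acetyl-CoA from acetate in the cytosol and nucleus, averaged 42.6 CPM in PAE-AAE females, 41.1 CPM in control females, 41.7 CPM in PAE-AAE males and 43.6 CPM in control males at P90. At P42 the means were 55.1 CPM in PAE-VEH females, 53.6 CPM in control females, 57.8 CPM in PAE-VEH males and 57.0 CPM in control males. Acss2 fell with age by 0.39 ± 0.10 on the log2 scale in control males (adjusted p = 0.0289). Between the exposed groups of the 2 ages, which also differ in adolescent alcohol, it was lower at P90 with log2 values of -0.47 ± 0.09 in males (adjusted p = 0.0137) and -0.42 ± 0.07 as the mean over the sexes (adjusted p = 0.0025). The log2 fold change was -0.38 ± 0.09 in control females (adjusted p = 0.0617) and -0.37 ± 0.11 in exposed females (adjusted p = 0.0816). The control male call was lost without any of P90 replicates 1 to 5 or P42 replicate 7 (adjusted p 0.0504 to 0.0976), and that of exposed males without PAE-AAE replicate 4 (adjusted p = 0.0559). Without the mismatched library the control male value was -0.36 (adjusted p = 0.0608).

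Acy1, an aminoacylase that removes acetyl groups from N-acetylated amino acids, rose by 0.47 ± 0.11 in control males (means 28.3 ± 5.95 and 20.4 ± 2.23 CPM at P90 and P42, SD, n = 6 and 9; adjusted p = 0.0252). In exposed females it rose by 0.37 ± 0.09 (adjusted p = 0.0315). Acy1 did not pass in edgeR in control females, at 0.43 (adjusted p = 0.0838), or in exposed males, at 0.06 (adjusted p = 0.854). The mean over the sexes of exposed rats was 0.22 (adjusted p = 0.0714). PAE-AAE females at P90 had 26.1, 26.8, 27.5, 28.97 and 29.3 CPM and PAE-VEH females at P42 had 19.5, 20.6, 21.6 and 23.8 CPM. These ranges did not overlap, and every P90 library lay above every P42 library for 4.77% of 24337 genes in that comparison. Acy3, the aminoacylase that acts on aromatic N-acetyl amino acids, rose by 0.61 ± 0.13 in control males (adjusted p = 0.00879), with means of 6.997 ± 1.23 CPM at P90 and 4.58 ± 0.61 CPM at P42. In control females Acy3 had 0.04, and the female minus male difference of -0.57 ± 0.18 had an adjusted p of 0.47. The Acy1 call in control males was lost without P90 replicate 4, 5 or 6 (adjusted p 0.059 to 0.136), and the Acy3 call without P90 replicate 6 (adjusted p = 0.0625). The Acy1 call in exposed females was kept without PAE-VEH replicate 2 or PAE-AAE replicate 2 or 3 and was lost without any of the other 6 libraries (adjusted p up to 0.153). With choroid plexus, ependymal and cortical scores as covariates, the control male values were 0.38 for Acy1 (adjusted p = 0.106) and 0.57 for Acy3 (adjusted p = 0.0482).

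The genes that cleave, carry or sense N-acetylaspartate and NAAG did not pass between the ages. Folh1, the peptidase that cleaves NAAG, had 0.51 ± 0.20 in exposed females, 0.29 in control females, 0.32 in exposed males and 0.41 ± 0.17 in control males, with adjusted p-values of 0.202 in exposed females and 0.185 in control males. Grm3, the glutamate receptor that NAAG activates, had -0.22 ± 0.08 in control females (adjusted p = 0.179). Slc13a3, a carrier of N-acetylaspartate, had 0.43 in control females and 0.00 in control males. No gene of the list passed for ethanol exposure in edgeR; an unadjusted p under 0.05 was seen for 1 of 23 in females and 4 in males at P42, where 11.3% and 8.96% of all genes stood at that threshold, and for 0 in females and 2 in males at P90, where 4.23% and 8.74% did. Those with the smallest p in males at P42 were Acy3, at 0.41 ± 0.12 in PAE-VEH over control males (adjusted p = 0.326), and Acy1, at 0.22 ± 0.07 (adjusted p = 0.394). In females at P42, Rimklb was followed by the aspartate-glutamate carrier Slc25a12 at 0.13 ± 0.07 (adjusted p = 0.475). At P90, Aspa had the smallest p in males, and in females the mitochondrial acetyl-CoA synthetase Acss1 had -0.21 ± 0.11 and Naaladl1 -0.28 ± 0.18 (adjusted p = 1 each).

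**Figure D5:**
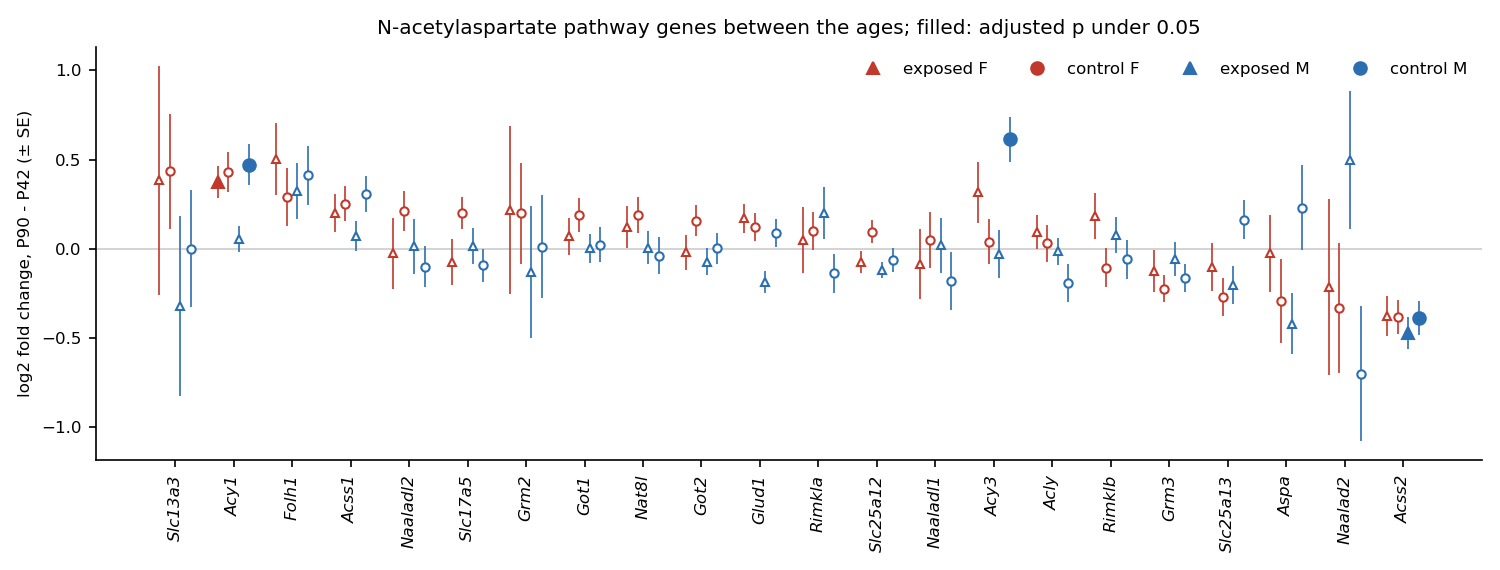
Log2 fold change of P90 over P42 with its SE (y axis) for 22 of the 23 pathway genes (x axis, ordered by the value in control females), in exposed (triangles) and control (circles) females (red) and males (blue), filled where the adjusted p was under 0.05. Acss2 lies below 0 in all 4 comparisons, at -0.37 to -0.47, and Acy1 and Acy3 hold the filled points above 0.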

How the data were processed

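Bulk RNA sequencing of the nucleus accumbens was measured in 54 libraries. The authors deposited raw counts per gene, and FPKM values (fragments per length and depth) in the same table. Per the labels' protocols, RNA came from a high-lipid extraction with RIN values above 6.3 except 1 of 5.8 (average 7.2), and libraries were made with random hexamers and are not strand-specific. Per the submitters' processing notes, HISAT2 2.0.5 and fastp were used. Which counter, annotation and build they used is not given here. Start and end of 45780 genes matched GRCr8. The table holds 46505 genes, and 720 without a name (0.271% to 0.412% of counts) were left out.

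Counts were tested with edgeR 4.0.16 in R 4.3.3 (TMM scaling, edgeR's default filter on low counts by group, quasi-likelihood F test, two-sided), with Benjamini-Hochberg adjustment over all genes tested and a threshold of 0.05. Fits held the 30 control, 29 adolescent, 25 adult, 24 exposed or all 54 libraries, with 1 mean per group and biological coefficients of variation of 34.2% to 39.6%. An SE is the log2 fold change divided by the root of F, and 95% intervals follow from it. FPKM served only to compare levels between genes. Scripts were tested on simulated data. Correlations used log2 CPM (prior count 2) of genes with a mean of at least 1 CPM.

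Groups come from the sample titles. Replicate numbers follow the order of accession. The labels give 1 batch date and no litter and do not say that libraries come from separate animals, so p-values measure only the spread between libraries, which may be technical in part. Depth covers counting error only. Members, lists and tests were chosen with earlier results of these data known. Named genes are the 5 members, genes of the pathway and family lists past the threshold (at most 6 by p) or the 2 with the smallest p where none passed, and the 5 genes most like each member; Folh1, Grm3, Slc13a3, Nat8b, Trpv3 and Spata22 are named beyond that rule, after their values were seen. Alternatives were RLE factors, no filter, DESeq2 1.42.0, voom of limma 3.58.1, other sets of libraries, marker scores as covariates, and leaving out each library. 1 gene of the pathway list that the rule names is not reported here. Motifs were searched in RefSeq promoters (GRCr8); Nat8l has no entry there. Figures were drawn with matplotlib 3.10.9.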

Additional observations from a re-analysis of the deposited data

Results flagged for a closer look

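Of 40 combinations of gene and group examined, 2 held a library far from the others by Dixon's criterion, which chance gives in about 1 in 20. Nat8f3 had 57.58 CPM in PAE-VEH males replicate 6 at P42, where the next value was 37.51 CPM, a gap of 0.548 of the range of the 9 libraries. Without that library the Nat8f3 log2 fold change of exposed males between the ages was 1.10 (adjusted p = 0.0101), against 0.94 (adjusted p = 0.0747) with all libraries. The same library had the highest cortical neuron score (2.88, next 2.27), the highest neuron score (0.72, next 0.42) and the lowest ependymal score (-2.93, next -1.36) of all 54 libraries. With choroid plexus, ependymal and cortical scores as covariates the log2 fold change of exposed males was 0.94 (adjusted p = 0.0555). Aspa had 42.32 CPM in control females replicate 1 at P90, where the next value was 28.11 CPM, a gap of 0.531 of the range of the 8 libraries. The Aspa and myelin levels of single libraries moved together, with r = 0.93, and their part in this value was not tested.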

How the results depend on the processing

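No paired analysis was possible because the replicate numbers come from accession order and the labels give no number, litter or animal that joins libraries. Nat8f3 in control males passed in all 9 other settings (1.02 to 1.15) and without each library (0.92 to 1.14), and in exposed rats as the mean over the sexes in all 8 (0.84 to 1.05) and without each library (0.96 to 1.14). The number of the 5 genes past the threshold in exposed males was 1 under DESeq2, voom and the fit of all libraries, against 0 as reported, and in exposed females 0 under the fit of all libraries, against 1 as reported; leaving out 1 library gave 0 to 1 in both. Of single log2 fold changes, 482 kept direction and side of the threshold under other settings, 21 newly passed, 11 no longer passed and 12 changed sign; the cause was not tested. With choroid plexus, ependymal and cortical scores as covariates those that changed sign were Nat8f3 for ethanol in males at P42 (0.0943) and female minus male at P90 (0.0219), Nat8l and Rimkla with age in control females (-0.0197 and -0.0712) and Aspa with age in control males (-0.106). With the myelin score they were Nat8f3 for ethanol, female minus male, at P90 (0.0352), Aspa between the ages in control females (0.16) and in exposed females (0.11), Acy3 with age in control females (-0.0143) and Nat8f1 in exposed rats (-0.0315). Acy3 in control females was -0.0151 with voom and -0.00821 without the libraries whose sex markers go against their label. Leaving out 1 library moved Nat8f3 for ethanol at P42 over -0.18 to 0.0613 in males, -0.0282 to 0.33 in females, -0.0230 to 0.15 as their mean and -0.0104 to 0.37 as their difference, and in males at P90 over -0.28 to 0.00086. Between the ages it moved Nat8l over -0.0860 to 0.0476 in control males and -0.0383 to 0.0698 in exposed males, Aspa over -0.10 to 0.0693 and Rimkla over -0.0410 to 0.17 in exposed females, Rimklb over -0.0334 to 0.12 in exposed males, Acy3 over -0.00988 to 0.10 in control females, and Nat8f1 over -0.0845 to 0.21 and Nat8f4 over -0.0290 to 0.15 in exposed rats. Counts over all genes depend on the setting: with age in control males 610 genes passed as reported and 122 to 1335 under other settings, in control females 54 up and 47 down against 18 to 1505 in all, in exposed females 529 and 121 to 1797, in exposed males 69 and 30 to 231, in exposed rats 283 and 208 to 793, for sex at P90 12 and 0 to 16, and for ethanol at P42 0 and up to 86. For sex at P42, 0 genes passed as reported and 0 to 13 under other settings. Depth gives at least 1024 counts per library for Nat8f3 and Aspa, so the spread between libraries, and groups of 4 to 9, set the limits.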
